A study of Mus musculus with 4 samples.

Results

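The genes described here are those through which a cell takes up, activates, inactivates and responds to thyroid hormone. They comprised the 3 deiodinases Dio1, Dio2 and Dio3, the nuclear receptors Thra and Thrb, the membrane transporter Slc16a10 and the hormone-responsive gene Thrsp. These 7 genes were chosen by name from the 22912 genes with a probe on the array, after the values of Dio2 in the comparison of MOTS-c with the scrambled peptide were known, because Dio2 was among the genes the study singled out on the same arrays. The values of the 7 genes are therefore given as a description, with no test. Gene expression was measured in pancreatic islet cells, which were isolated from male C57BL/6 littermates at 60 weeks of age, dispersed, and given a peptide ex vivo at 10 μM for 24 h. 2 arrays carried RNA of cells given MOTS-c, a peptide encoded in mitochondrial DNA (replicates 2 and 3), and 2 carried RNA of cells given a scrambled peptide (replicates 1 and 2). All 4 arrays were one-color Agilent arrays on 1 slide. The question was how the added peptide changes transcripts of aged islet cells. The 4 arrays came from 4 littermates, but nothing ties an array to 1 animal, so the spread between arrays may be technical, and their number limits the precision.

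The thyroid gland secretes mostly thyroxine, a prohormone with little activity at the receptors. Inside target cells the Dio2 enzyme removes an outer-ring iodine and yields the active hormone triiodothyronine, whereas the Dio3 enzyme removes an inner-ring iodine and inactivates both forms, and Dio1, best known from liver and kidney, can do either. Triiodothyronine binds the receptors encoded by Thra and Thrb, which sit on DNA together with retinoid X receptors and exchange corepressors for coactivators when the hormone arrives. In beta cells thyroid hormone is known for its part in maturation, through genes such as Mafa.

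Markers, labels and background were checked first. All 9 islet endocrine markers, among them Ins1, Ins2, Gcg and Sst, were measured, with differences from -0.28 to 0.32 on the log2 scale. The mice are labeled male, yet none of the 7 probes for Uty, Kdm5d, Eif2s3y and Ddx3y, which lie on the Y chromosome, was kept (a probe was kept when its spots were well above local background on at least 2 of the 4 arrays), and the probe of Xist, an RNA of the inactive X chromosome, was measured on every array. This mismatch is the same in both groups. Over all 35087 kept probes the median difference was 0.01, and the median gap between the 2 arrays of a group was 0.16 with scrambled and 0.19 with MOTS-c. By limma, 0 of 35087 probes (0%) reached an adjusted p under 0.05, with 0.474 the smallest adjusted p, while 2755 had an unadjusted p under 0.05. The methods' t-test gave 1 probe after adjustment and 2312 before it.

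The promoters of Dio2, Dio3 and Thrsp are shown because 2 of these genes encode enzymes with opposite action on the hormone and Thrsp is a classical hormone target. Promoter entries were found for 6 of the 7 genes in RefSeq, build GRCm38.p6. Each sequence holds the 250 bases before the annotated start, 5′ to 3′ in the direction of the gene. Capitals mark a cyclic AMP response element (TGACGTCA), a TATA box (TATAAA) or a CCAAT box (CCAAT, which reads ATTGG on the other strand). Dio2 lies on the minus strand (chr12:90739039-90739288), Dio3 on the plus strand of the same chromosome (chr12:110278980-110279229) and Thrsp on the minus strand (chr7:97417551-97417800).
Dio2: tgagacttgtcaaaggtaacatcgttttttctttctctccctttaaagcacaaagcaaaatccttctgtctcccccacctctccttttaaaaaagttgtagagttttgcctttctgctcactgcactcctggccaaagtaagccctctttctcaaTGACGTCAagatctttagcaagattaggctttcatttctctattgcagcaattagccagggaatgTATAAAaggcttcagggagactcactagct
Dio3: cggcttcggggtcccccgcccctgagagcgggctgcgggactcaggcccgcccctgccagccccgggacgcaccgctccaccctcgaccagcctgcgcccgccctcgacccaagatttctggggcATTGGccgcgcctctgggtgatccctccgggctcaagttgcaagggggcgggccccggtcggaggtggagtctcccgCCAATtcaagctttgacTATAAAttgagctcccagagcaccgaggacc
Thrsp: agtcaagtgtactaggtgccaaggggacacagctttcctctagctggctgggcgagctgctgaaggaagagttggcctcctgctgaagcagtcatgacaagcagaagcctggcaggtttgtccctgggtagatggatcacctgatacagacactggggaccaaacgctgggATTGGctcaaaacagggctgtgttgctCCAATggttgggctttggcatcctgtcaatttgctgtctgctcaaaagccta

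In the Dio2 promoter the cyclic AMP response element began 95 bases before the start and the TATA box 30 bases before it. The element TGACGTCA is its own reverse complement, and it was present in 508 of 32851 mouse promoters of this length (1.55%). Among the promoters of the 6 genes it was found in that of Dio2 only. The Dio3 promoter held a TATA box 31 bases before the start and CCAAT boxes at 125 and 48 bases, and the Thrsp promoter held CCAAT boxes at 79 and 52 bases. Across all promoters, 12.4% held TATAAA and 33.8% held CCAAT on either strand. The half-site of thyroid hormone receptors (AGGTCA, either strand) was present in 14.0% of promoters and, among these genes, only in that of Thrb, 184 bases before the start of 1 of its 2 entries. The searched letters did not overlap each other in these promoters. A match of letters is a description and shows no binding.

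The 7 genes had 14 probes, of which 10 were kept, each well above background on all 4 arrays, and these covered 6 genes. Dio1 had 3 probes, and none was well above background on any array. Their signal was 0.941 to 1.5 times the local background. The second probe of Thrb was well above background on MOTS-c replicate 3 only and was likewise left out. Closest to the local background among the 10 kept probes were that of Dio3, at 1.62 to 2.29 times the local background, and the second probe of Thrsp, at 1.91 to 2.18 times.

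**Figure D1:**
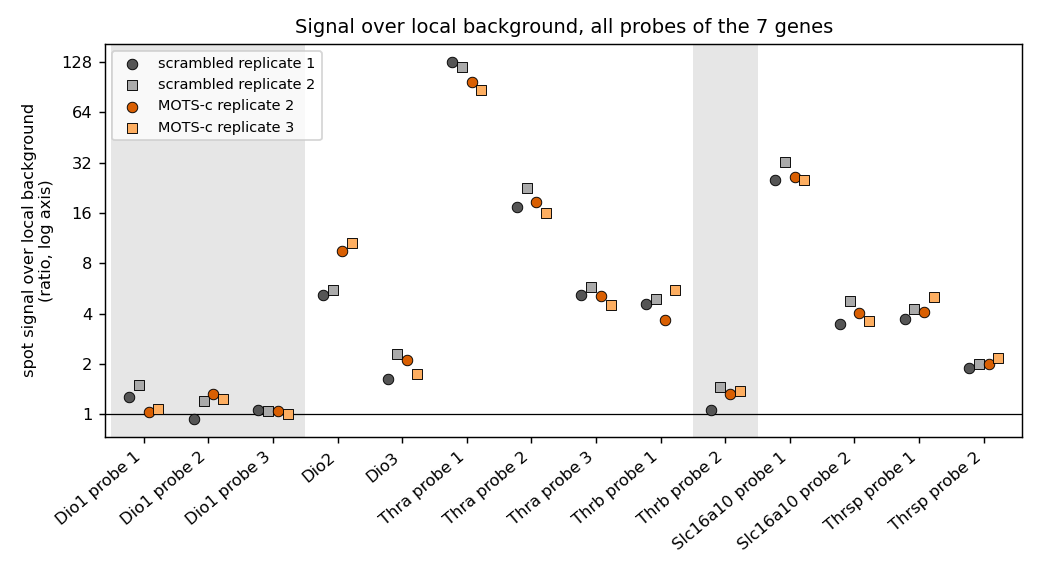
Spot signal divided by local background (log axis, ratio) for the 14 probes of the 7 genes on each of the 4 arrays. Grey bands mark the 4 probes that were not kept, the 3 of Dio1 and the second of Thrb, which all lie at or below 1.5. The Dio2 spots read 5.20 and 5.53 with scrambled and 9.45 and 10.5 with MOTS-c.

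Dio2 was higher with MOTS-c on both arrays. Its 1 probe (A_51_P208603) had log2 signals of 7.37 (replicate 1) and 7.30 (replicate 2) with scrambled, and of 8.28 (replicate 2) and 8.49 (replicate 3) with MOTS-c. The groups did not overlap, and the lowest MOTS-c value lay 0.91 above the highest scrambled value, against gaps of 0.07 and 0.21 within the groups. The difference was 1.05 ± 0.14 (SE, n = 2 per group) on the log2 scale, or 2.06-fold. It was visible before any normalization, since the background-corrected intensities were 170 and 145 with scrambled and 308 and 381 with MOTS-c. Among all 35087 probes, 97 differed upward by as much as Dio2 or more, Dio2 included. The annotation places the predicted gene Gm26512 over the Dio2 locus, so signal of that transcript in the probe was not tested.

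Dio3 did not separate the groups. Its probe (A_55_P2091468) read 4.91 and 6.29 with scrambled and 5.45 and 4.88 with MOTS-c, so that both MOTS-c values fell below scrambled replicate 2 and 1 of them above scrambled replicate 1. The difference was -0.43 ± 0.50 (SE) and turned with the choice of scrambled array. Without that array it was 0.25, and without scrambled replicate 1 it was -1.11. For the inactivating enzyme these arrays thus gave no direction.

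**Figure D2:**
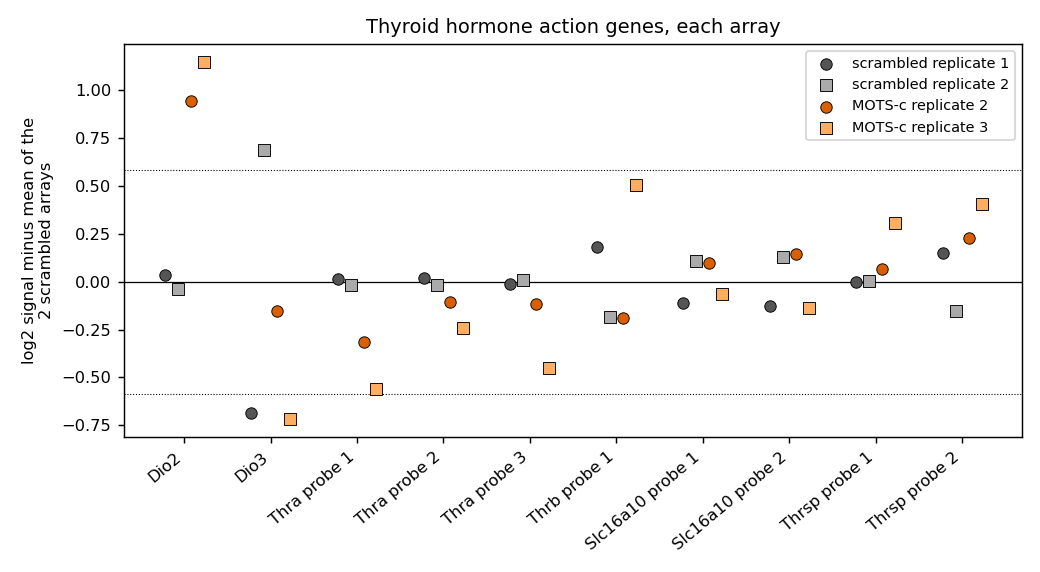
Log2 signal of the 10 kept probes on each array, minus the mean of the 2 scrambled arrays. Dotted lines mark 1.5-fold in either direction. The MOTS-c values of Dio2 lie above the upper line, and those of the 3 Thra probes lie below both scrambled values.

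All 3 probes of Thra, which encodes the thyroid hormone receptor alpha, read lower with MOTS-c. The brightest (A_51_P475995) read 12.17 and 12.14 with scrambled and 11.84 and 11.59 with MOTS-c, a difference of -0.44 ± 0.14 (SE). The second (A_52_P666930) read 9.60 and 9.56 against 9.48 and 9.34, and the third (A_66_P102879) read 7.25 and 7.27 against 7.15 and 6.82. In each of these probes the groups did not overlap and MOTS-c replicate 3 was lowest. The differences of the 2 dimmer probes were -0.17 ± 0.13 and -0.28 ± 0.16 (SE), and the mean over the 3 probes was -0.30, under 1.5-fold throughout. The 3 probes share their RNA samples and 1 transcript record, and are not replicates of the treatment. In the annotation, Thra overlaps Nr1d1, a clock gene, whose probe read 7.27 and 7.22 with scrambled and 7.26 and 6.68 with MOTS-c. Whether signal of Nr1d1 enters a Thra probe was not tested.

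Thrb, the beta receptor, overlapped between groups. Its kept probe (A_52_P532559) read 7.16 and 6.80 with scrambled and 6.79 and 7.48 with MOTS-c. The MOTS-c arrays were thus the lowest and the highest of the 4, and the difference of 0.16 ± 0.28 (SE) was smaller than its error. It was -0.19 without MOTS-c replicate 3 and 0.50 without MOTS-c replicate 2.

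Slc16a10, a transporter of aromatic amino acids and thyroid hormones, was measured by a pair of probes that differed little between groups. The brighter (A_51_P448618) read 9.77 and 9.99 with scrambled and 9.98 and 9.82 with MOTS-c. The dimmer (A_52_P527924) read 6.72 and 6.98 against 6.99 and 6.71. Scrambled replicate 2 and MOTS-c replicate 2 were high and the other two arrays low in both probes, so the groups overlapped. The differences were 0.02 ± 0.15 and 0.00 ± 0.17 (SE).

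Thrsp, a nuclear protein that promotes fatty acid synthesis and is induced by thyroid hormone in liver, was slightly higher with MOTS-c in both of its probes. The first (A_55_P2018666) read 6.72 and 6.73 with scrambled and 6.79 and 7.03 with MOTS-c. The second (A_51_P194099) read 5.14 and 4.84 against 5.22 and 5.40. The groups did not overlap in either probe, but the closest values lay only 0.07 and 0.08 apart. The differences were 0.19 ± 0.14 and 0.32 ± 0.16 (SE), below 1.5-fold.

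In all, 6 of the 10 kept probes did not overlap between groups, 3 higher (Dio2 and both of Thrsp) and 3 lower (Thra), where 38.0% of all kept probes did not overlap. Of the 10, 1 (Dio2) passed both an unadjusted p under 0.05 and a 1.5-fold difference, as did 3.53% of all kept probes. The other 9 differed by less than 1.5-fold. The median difference of the 10 probes was 0.01, the same to 2 decimals as that of all kept probes. Since the 7 genes were selected on this comparison, nothing is read from these counts.

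**Figure D3:**
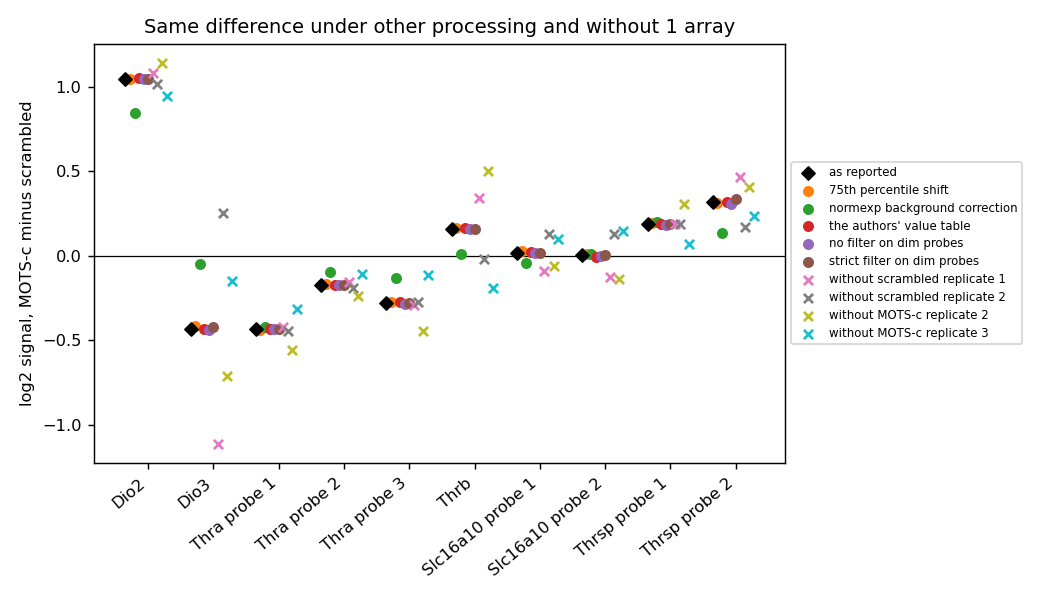
Log2 difference, MOTS-c minus scrambled, of the 10 kept probes as reported (black diamonds), under 5 other ways of processing (circles) and without 1 array (crosses). Dio2 stays between 0.84 and 1.14 and the Thra probes stay below 0, whereas Dio3, Thrb and both Slc16a10 probes lie on either side of 0.

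The wider machinery of thyroid hormone action was followed through 75 other genes, of which 62 were measured, each by its brightest kept probe. By limma, 0 of the 62 had an adjusted p under 0.05 (also 0 by the methods' t-test), while 6 had an unadjusted p under 0.05 by limma and 7 by the methods' t-test. Over all 35087 kept probes, 2755 had an unadjusted p under 0.05 by limma and 2312 by the methods' t-test. These are counts of probes, dimmer probes of a gene included, and the same count over genes by brightest probe was not made. At an unadjusted p under 0.05 with 1.5-fold, 0 of the 62 were higher and 3 were lower with MOTS-c. Among 15471 genes measured the same way, 0.995% were higher and 3.01% were lower. Groups did not overlap for 29 of the 62 genes, 8 higher and 21 lower, against 42.5% of all genes. The split by direction was not counted over all genes, so nothing is read from it. The median difference of the 62 was -0.04, and over all genes it was 0.00. Without MOTS-c replicate 2, 6 genes were lower and 1 was higher at this threshold, and without scrambled replicate 2 there were 2 lower and 0 higher.

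Rxrg, a retinoid X receptor that pairs with thyroid hormone receptors, was 1 of the 3. It read 8.16 and 8.42 with scrambled and 7.54 and 7.20 with MOTS-c, a difference of -0.92 ± 0.18 (SE, adjusted p = 0.486 by limma). The groups did not overlap, and MOTS-c replicate 3 was lowest. Its relatives differed less, Rxra by -0.43 ± 0.15 and Rxrb by -0.03 ± 0.12 (SE).

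Gpbar1 encodes the membrane bile acid receptor, which raises cyclic AMP and through it is known to induce Dio2 in brown fat and muscle. It read 6.97 and 7.36 with scrambled and 6.67 and 6.23 with MOTS-c, a difference of -0.72 ± 0.23 (SE, adjusted p = 0.564 by limma), opposite in sign to that of Dio2. It did not pass the threshold without scrambled replicate 2, without MOTS-c replicate 3, with the normexp background correction, without a filter on dim probes or by the methods' t-test. Other genes that act on Dio2 differed less. Usp33 and Usp20, which remove ubiquitin from the Dio2 protein, differed by 0.13 and 0.23, and Wsb1 and Marchf6, which mark it for degradation, by 0.33 and 0.07. Adrb3, the beta-adrenergic receptor of fat cells, was not measured.

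Pax8 is a transcription factor of the thyroid gland. It read 6.56 and 6.41 with scrambled and 5.40 and 4.84 with MOTS-c. The groups did not overlap, and the difference was -1.37 ± 0.22 (SE, adjusted p = 0.474 by limma). The MOTS-c spots of Pax8 were at 1.68 and 1.78 times the local background, and the difference was -0.71 with the normexp background correction. Trh, the hypothalamic releasing hormone, which is also known from developing islets, read 5.27 and 5.25 with scrambled, 5.16 on MOTS-c replicate 2 and 3.66 on MOTS-c replicate 3, where it was not well above background. Slc5a5, the iodide transporter, differed by -0.21 and Iyd, which recovers iodide, by 0.32, both with overlapping groups. The thyroid gland genes Tg, Tshr and Duox2 were not measured.

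**Figure D4:**
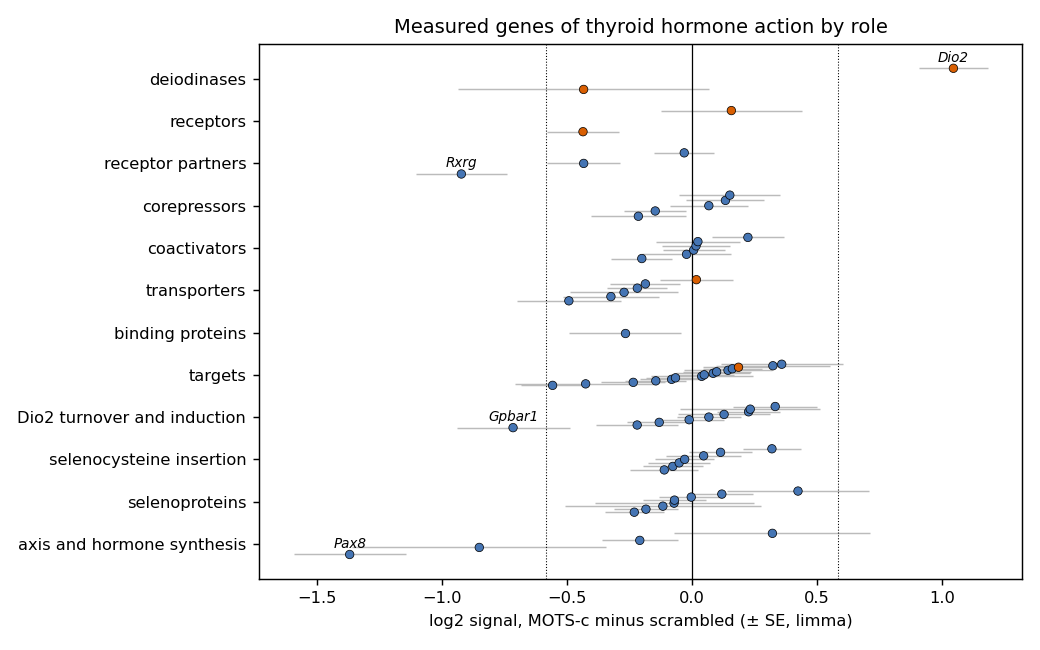
Log2 difference, MOTS-c minus scrambled, with the SE from limma, for the measured genes of thyroid hormone action, each by its brightest probe and grouped by role. The 7 genes chosen by name are in orange where measured, others in blue, and dotted lines mark 1.5-fold. Gene names are given at an unadjusted p under 0.05 with 1.5-fold, with Dio2 at 1.05 and Pax8 at -1.37.

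Of 6 transporters, all measured, 5 read lower with MOTS-c, from -0.49 to -0.19, and Slc16a10 was the exception. The amino acid transporters Slc7a5 and Slc7a8, which also carry thyroid hormone, differed by -0.22 and -0.49, and Slco1c1, an organic anion transporter of the blood-brain barrier, by -0.27. Slco1c1 lay at 1.10 to 1.57 times the local background, was well above background on 1 of the 2 MOTS-c arrays, and differed by 0.04 with the normexp background correction. The groups did not overlap for 4 of the 6, all lower, where 42.5% of all genes did not overlap, and none of the 6 reached an unadjusted p under 0.05. Among these 4, Slc17a4, named here for its low signal, lay at 1.47 to 1.75 times the local background. Of the carriers in blood, Ttr, which alpha cells also make, differed by -0.27 ± 0.22 (SE), and Alb and Serpina7 were not measured.

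Genes that respond to the hormone went in no common direction. Of 15 measured targets, Thrsp included, 9 were higher and 6 lower, with a median of 0.05, and none changed by 1.5-fold. Groups did not overlap for 9 of the 15, 3 higher and 6 lower, against 42.5% of all genes. Klf9, a transcription factor induced by triiodothyronine in many tissues, differed by 0.32 ± 0.23 (SE) with overlapping groups. Hr, a corepressor induced by the hormone in brain and skin, differed by -0.43 ± 0.28 (SE), with only MOTS-c replicate 3 low, and Me1, a lipogenic enzyme, by -0.15. Bcl3 had the lowest value, -0.56 ± 0.13 (SE), and was picked out after its value was seen.

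The corepressor genes Ncor1, Hdac3, Tbl1x and Tbl1xr1 differed by -0.21 to 0.15, and the 5 measured members of that list kept to the same range. The coactivators Ncoa1, Ncoa2, Ncoa3 and Med1 differed by -0.20 to 0.02, and the 6 measured members by -0.20 to 0.22. Deiodinases carry selenocysteine at the active site, so the genes that insert it were also followed. Secisbp2, Sephs1, Sephs2 and Sepsecs differed by -0.08 to 0.11, and the 7 genes of this machinery by -0.11 to 0.32. Gpx1, Gpx4, Txnrd1 and Txnrd2, which encode other selenoproteins, differed by -0.23 to 0.12, and the 8 genes of this list by -0.23 to 0.42. By limma, 0 of these 8 and 1 of the 7 genes of the insertion machinery reached an unadjusted p under 0.05. The count was 0 for the 5 corepressors and 0 for the 6 coactivators. The 1 gene was Pstk, named here for its p. It read 12.04 and 12.05 with scrambled and 12.37 and 12.36 with MOTS-c, a difference of 0.32 ± 0.12 (SE, adjusted p = 0.623 by limma). Over all kept probes, 2755 of 35087 had an unadjusted p under 0.05. With lists this short, nothing is read from these counts.

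Dio2 is also made outside endocrine cells, for example in glia and brown fat, and in such bulk samples fewer cells of a type and less RNA per cell cannot be told apart. Of 3 glial markers 1 was measured. Gfap read 5.15 and 4.90 with scrambled and 5.23 and 5.78 with MOTS-c, higher on both MOTS-c arrays, a difference of 0.48 ± 0.23 (SE). Its signal was near background, at 1.68 to 2.27 times the local background, and 1 of its 2 probes was kept. Sox10 and S100b did not pass the filter on background. Of 5 adipocyte markers 3 were measured, with a summed log2 signal of 8.35 to 8.73 with scrambled and 8.33 to 8.63 with MOTS-c, and Adipoq and Cfd were not. The summed signal overlapped between groups for the acinar, ductal, endothelial and leukocyte lists, with 3 of 6, 2 of 5, 2 of 4 and 2 of 5 markers measured. The mesenchymal list (3 of 7 measured) was at 12.32 to 12.46 with scrambled and 12.24 with both MOTS-c arrays. That sum was mostly Acta2, which read 12.40 and 12.26 with scrambled and 12.19 on both MOTS-c arrays. It rests on 1 of 3 Acta2 probes, the only one kept. Across the 3 probes and 4 arrays, 4 of 12 readings were well above background, and the signal was 0.674 to 161 times the local background. The endothelial and leukocyte sums were likewise mostly Plvap and Csf1r. The mesenchymal marker Pdgfra differed by -1.05 ± 0.33 (SE, adjusted p = 0.567 by limma), at 1.74 to 3.46 times the local background. The part of such cells in the Dio2 difference was not tested.

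The 5 genes whose profile over the 4 arrays, centred on its mean, was closest to that of Dio2 were Frrs1, Lrba, Mmp3, Grk4 and Bcar3. Their root mean square differences from Dio2 were 0.07, 0.11, 0.12, 0.13 and 0.14 on the log2 scale, against a median of 0.54 over 22822 probes of named genes. The 5 were picked as the smallest of these differences, so lying below the median follows from the choice. Bcar3 read 5.20 and 5.22 with scrambled and 6.48 and 6.47 with MOTS-c, and Frrs1 read 4.82 and 4.88 against 5.72 and 5.87. Mmp3 was not well above background on either scrambled array and was at least 1.54-fold higher with MOTS-c. For each scrambled array this took the larger of the Mmp3 signal and the lowest signal well above background. Lrba was well above background on 1 scrambled array. The likeness to Dio2 rests on 4 arrays, and under the normexp correction the differences of these 5 genes were 0.15 to 0.62 in place of 0.85 to 1.26.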

How the data were processed

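Total RNA was amplified, labeled with Cy3 and hybridized to one-color Agilent mouse arrays, and the intensity values the authors deposited were read with Feature Extraction (version 11.0.1.1), which corrected each spot for background but did not normalize across arrays. The authors' value table holds the same linear intensity values, rounded (ratio 0.995 to 1.005), with column medians of 46.6 to 54.9. Control spots and outliers were dropped, log2 was taken and the spots of each probe were averaged. A probe was kept if well above background on 2 or more of the 4 arrays (35087 of 56605), and the quantile method was applied. The log of the processed signal and the quantile method follow the study's methods. The rule on background stands in for a flag filter that they do not define, and the handling of outliers and repeated spots was added here. No gene spot was saturated. Groups and replicate numbers came from the labels. MOTS-c was compared with scrambled by limma (version 3.58.1, R 4.3.3) with Benjamini-Hochberg adjustment over all kept probes. Only the limma fit was checked on simulated data, drawn as normalized log2 values, and the earlier steps were not. For 2 arrays against 2, the smallest two-sided p of an exact permutation test is 0.333.

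Probes were named through RefSeq accessions (GRCm38.p6 gene table). The array design uses another build, so no probe positions are given. The genes, the lists and the tests were chosen with earlier results of these data known. Named genes are all probes of the 7 genes, of other listed genes those at an unadjusted p under 0.05 with 1.5-fold and up to 4 per list in listed order, and the 5 probes most like Dio2. Marker lists covered islet endocrine, acinar, ductal, mesenchymal, endothelial, leukocyte, adipocyte and glial cells. Alternatives were a 75th percentile shift, normexp with an offset of 50, the authors' table, no filter, a strict filter, each array left out, limma with a trend, the methods' t-test and the mean over a gene's probes. Some listed genes are not reported here. The study's qPCR, metabolite, cell line and human data were not analysed here.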

Additional observations from a re-analysis of the deposited data

How the results depend on the processing

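The difference of Dio2 was 0.84 on the log2 scale with the normexp background correction, 1.04 to 1.05 under the other 4 ways of processing, and 0.95 to 1.14 without 1 array. Of the 10 kept probes of the 7 genes, 6 kept their sign under each alternative run, and 4 (Dio3, Thrb and both of Slc16a10) changed it under at least 1. The brightest Thra probe ranged from -0.56 to -0.32. The mean over all probes gave -0.30 for Thra, 0.01 for Slc16a10 and 0.25 for Thrsp. Of 42 other named probes, 29 kept their sign. The number of probes at an unadjusted p under 0.05 with 1.5-fold, 1239 by limma, was 406 with normexp, 457 by the methods' t-test and 1374 to 3264 without 1 array, highest without MOTS-c replicate 2. The 3 other genes of hormone action called lower were 2 to 6 without 1 array, highest without MOTS-c replicate 2, with Rxrg and Pax8 among them under every alternative run. The cause of these shifts was not tested. No paired analysis was possible because the groups share only replicate number 2. Signal near background limits Dio1, Dio3, the second probe of Thrsp, Pax8, Slco1c1, Slc17a4, Trh and Gfap.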

Other observations

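The cyclic AMP response element found before Dio2 was looked for before other genes after the Dio2 promoter had been seen, and the counts are given with no test. Of 359 measured genes with TGACGTCA in a promoter entry, 4 were higher with MOTS-c at an unadjusted p under 0.05 with 1.5-fold by limma (Dio2, Gk5, Hlf and Topors) and 4 were lower (Cldn7, Maff, Rab25 and Th). Among all genes 0.995% were higher and 3.01% lower by the same rule. The median difference of the 359 was 0.01 on the log2 scale, and none was larger than that of Dio2. Dio2 is counted among the 4 and the 359. The element was taken from its promoter and the gene was chosen with its value known, so nothing is read from its place there.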
